A study of Mus musculus with 6 samples.

Results

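The genes described here carry out or control the cell cycle and DNA replication, and their mRNA levels were compared between MA-10 and STARKO1 mouse tumor Leydig cells. The rule went by symbol and used no measured value, though it was written with earlier results of these data known. A gene was taken when it was protein-coding in the deposited table and its symbol belonged to the cyclins of types A, B, D and E, the numbered cyclin-dependent kinases (CDKs), the CDK inhibitors Cdkn1 and Cdkn2 of types a, b and d, the E2F and RB families, the Mcm, Gins and Orc genes, or the Cenp genes, or was a named gene of replication, mitotic entry, the spindle checkpoint or the mitotic motors. The rule gave 107 of the 14774 genes in the table. They comprised 9 cyclins and CDKs of the cell cycle, 5 CDK inhibitors, 11 RB and E2F genes, 24 genes of origin licensing and the replicative helicase, 3 genes of deoxynucleotide supply, 14 genes of mitotic entry and the spindle checkpoint, 22 centromere and kinetochore genes, 5 genes of motors and chromosome structure, and 14 CDKs of transcription and other processes. Because membership went by symbol, the list also held Aurkaip1, which encodes a protein of the mitochondrial ribosome that can bind Aurora A, and Mcm3ap, which encodes an mRNA export factor. The annotation holds 6 more protein-coding genes with such symbols, Aurkc, Ccna1, Ccnb3, Ccnd1, Ccnd2 and Cdk6. These are not among the genes of the deposited table and so could not be analysed.

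MA-10 is a hormone-responsive cell line from a mouse Leydig cell tumor and was used as the wild type. STARKO1 is 1 clone, raised from a sorted MA-10 cell after CRISPR/Cas9 with guide RNAs against exon 2 of Star, the gene for the steroidogenic acute regulatory protein, and it carries a frameshift there. Both lines were grown normally and left untreated, and total RNA of 3 libraries per line was sequenced with a stranded kit. The labels do not say whether the 3 libraries of a line came from separate cultures, and the methods speak of independent experiments in general without naming the sequencing, so p-values measure the spread between these libraries, which may be technical. With 1 clone, the effect of the Star mutation and other properties of that clone cannot be told apart.

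The libraries held between 14114351 and 19530062 estimated counts. Levels are given as CPM, a gene's counts relative to the library total as scaled by the TMM method of edgeR. The TMM factors were 1.16, 0.654 and 0.805 for MA-10 replicates 1, 2 and 3. For STARKO1 replicates 1, 2 and 3 they were 1.19, 1.18 and 1.17. A lower factor raises the CPM of a library. The MA-10 libraries differed much more among themselves than the STARKO1 libraries did. Pearson's r of log2 CPM over 8538 well-expressed genes, which are not independent replicates, was 0.802, 0.874 and 0.974 for the 3 MA-10 pairs and between 0.995 and 0.996 for the STARKO1 pairs, and the lowest of these values was between MA-10 replicates 1 and 2. Star itself was at 60.9, 109 and 61.4 CPM in MA-10 replicates 1, 2 and 3 and at 2.06, 2.71 and 2.02 CPM in STARKO1 replicates 1, 2 and 3, and it passed the test with a log2 fold change of -5.09 (adjusted p = 0.00121, edgeR), in the direction of the labels. Among defining Leydig cell genes, Nr5a1 lay between 392 and 652 CPM and Cyp11a1 between 432 and 1118 CPM over the 6 libraries. Insl3, Fdx1, Scarb1 and Tspo were also expressed, while Cyp17a1 and Lhcgr were low, at 2.12 to 10.5 CPM and 2.42 to 4.70 CPM. Of the 10 Leydig genes tested, Star and Hsd3b1 passed as lower (Hsd3b1 log2 fold change -2.52, adjusted p = 0.00268). Of the markers of other testis cells in the table, the germ cell gene Ddx4 was at 1.91 to 3.55 CPM and the macrophage gene Cd68 at 0.352 CPM or less, whereas the Sertoli cell gene Rhox5, at 314 to 568 CPM, and the endothelial cadherin gene Cdh5, at 26.1 to 123 CPM, were well expressed in both lines. The macrophage gene Csf1r was at 4.597 to 9.68 CPM and the endothelial gene Pecam1 at 0.173 to 0.860 CPM. The lists had named 7 Sertoli, 7 germ and 7 macrophage or endothelial genes, of which 1, 1 and 4 were in the table. The other listed genes were absent from the table, which held no gene with a total under 10 counts. The 3 macrophage and endothelial genes tested had positive log2 fold changes, from 0.16 to 1.84. Cdh5 passed the test, with a log2 fold change of 1.84 (adjusted p = 0.00596, edgeR), and its part in the differences below was not tested.

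A dividing cell copies its genome once in S phase and separates the copies in M phase. The retinoblastoma protein RB1 binds E2F transcription factors and holds back their target genes until CDKs bound to D- and E-type cyclins phosphorylate it, and CDK inhibitors restrain those kinases. The origin recognition complex, CDC6 and the MCM2-7 ring then license replication origins, the ring is activated with CDC45 and the GINS complex into the helicase of the replication fork, and PCNA clamps polymerases to DNA. In mitosis, CDK1 with B-type cyclins, Aurora and Polo-like kinases drive division, and the centromere proteins build the kinetochore that holds the spindle. Leydig cells of the adult testis seldom divide, whereas MA-10 cells proliferate in culture.

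The transcripts of the 106 genes tested were detected in both lines, and few of them passed the edgeR test after adjustment. In bulk RNA, a different share of cells in a phase and a different amount of transcript per cell cannot be told apart. Of the 106 genes tested, 4 passed the threshold of 0.05 on the adjusted p (quasi-likelihood test of edgeR, Benjamini-Hochberg over all 11939 genes tested), against 9.04% of all genes. Cdk15, Cenpi and Gins1 were higher in STARKO1 cells, where 4.30% of all genes were higher, and Rb1 was lower, where 4.74% of all genes were lower. Before adjustment, 37 of the 106 genes (34.9%) had a p under 0.05, against 37.6% of all genes. The 3 STARKO1 libraries lay above the 3 MA-10 libraries without overlap for 21 genes (19.8%, against 21.5% of all genes), and the MA-10 libraries lay above for 23 genes (21.7%, against 21.0%). The unadjusted and non-overlapping shares are near those of all genes, and the share of calls after adjustment was 3.77%. With DESeq2, which called more genes throughout, 11 of the 106 genes (10.4%, against 10.5% of all genes) were higher and 18 (17.0%, against 16.0%) lower. These shares of all genes are the background for the counts by role below. The median log2 fold change was -0.10 over the 106 genes and -0.050 over all genes, and 92 of the 106 genes changed by less than 1 on the log2 scale. Scaling by library size alone moved both medians up, to 0.34 and 0.38, and the share of all calls that were higher in STARKO1 cells from 47.5% to 63.6%, so directions of small differences below are relative to the median of all genes. In the plot of fold changes by role, most intervals cross 0. Of the genes named below, Rbl1, Rbl2, E2f4, E2f5, E2f6, E2f7, E2f8, Cdkn2b, Mcm3, Mcm4, Mcm6, Mcm10, Mcm3ap, Gins2, Gins3, Cdc6, Cdc7, Cdc45, Ccnb2, Plk4, Kif23 and the Cenp genes other than Cenpa, Cenpi and Cenpp were chosen after their values were seen.

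**Figure D1:**
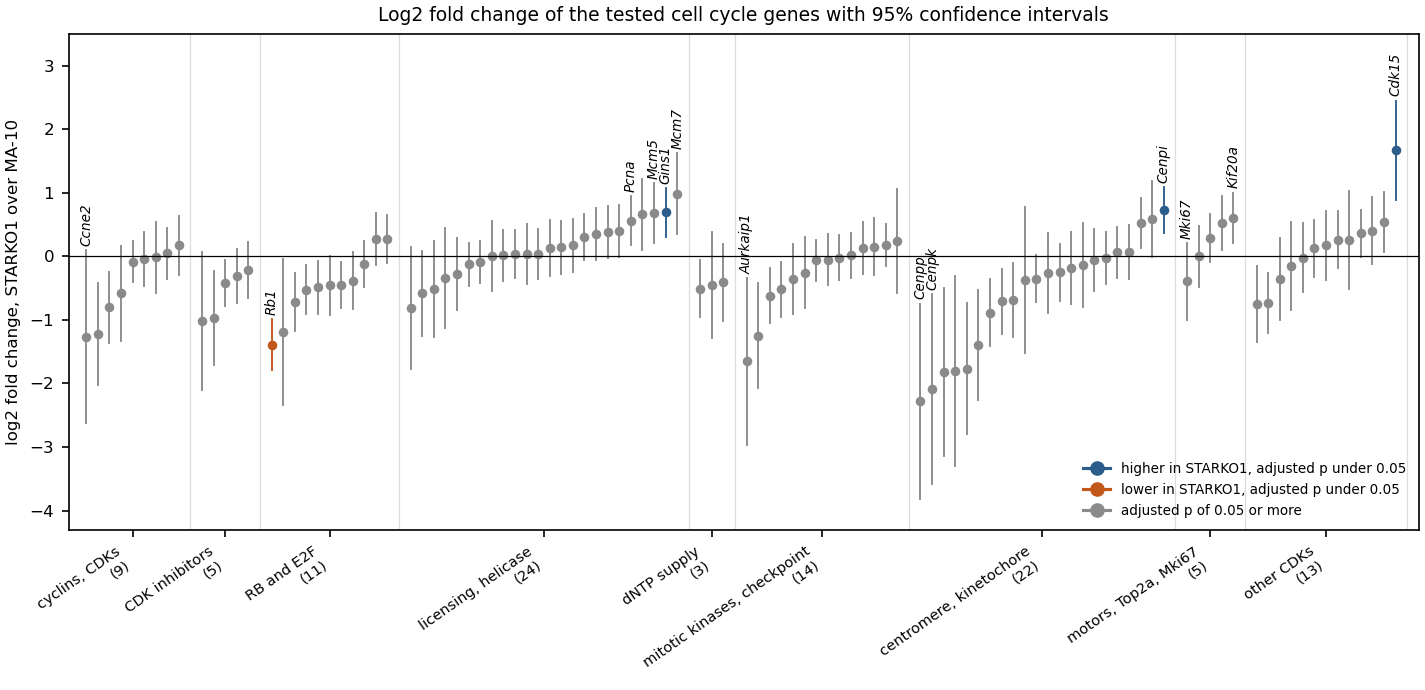
Log2 fold change (STARKO1 over MA-10) of the 106 tested genes, each a point with its 95% confidence interval, grouped by role on the horizontal axis and sorted within a role, with the number of genes in parentheses. The 3 genes higher in STARKO1 cells at an adjusted p under 0.05 are blue, Rb1, the lower one, is orange, and the lowest estimates, such as Cenpp at -2.28, have wide intervals.

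Rb1, the retinoblastoma gene (chromosome 14, 73183673 to 73325823, minus strand of GRCm38), had the lowest adjusted p of all the cell cycle genes. It was at 20.2, 19.8 and 19.4 CPM in MA-10 replicates 1, 2 and 3 and at 8.60, 6.72 and 7.30 CPM in STARKO1 replicates 1, 2 and 3. With TMM scaling, the MA-10 libraries, which differed so much elsewhere, were nearly equal for this gene, and every STARKO1 library lay far below them. Because the TMM factors of the MA-10 libraries were unequal, this near-equality depends on the scaling. The mean fell from 19.8 ± 0.393 CPM to 7.54 ± 0.964 CPM (SD, n = 3 each), with a fitted change of -1.39 on the log2 scale (standard error 0.167, 95% interval -1.78 to -0.99, adjusted p = 0.00742, edgeR). The call ended with scaling by library size alone (log2 fold change -0.95, adjusted p = 0.110, edgeR). It also ended when STARKO1 replicate 1, 2 or 3 was left out (adjusted p = 0.0586, 0.0662 and 0.0720, edgeR). In these fits 0.730%, 1.11% and 0.760% of all genes were called, against 9.04% in the main comparison. Without MA-10 replicates 1, 2 and 3 in turn, 65.7%, 4.19% and 1.49% were called. These shares are the background for the fits with 1 library left out below. On the opposite strand, Lpar6 lies inside the gene and Rcbtb2 overlaps its end, and no source says whether strand was used in counting. Lpar6 was at 1.60, 9.71 and 3.17 CPM in the MA-10 libraries and 0.787 to 1.72 CPM in the STARKO1 libraries, well below Rb1 in MA-10 cells, and Rcbtb2 was at 7.40 to 9.61 CPM in all 6 libraries. Their part in the Rb1 counts was not tested.

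The other genes of the RB and E2F families did not pass the test. Rbl1, which encodes the pocket protein p107, was at 58.5, 75.4 and 70.8 CPM in the MA-10 libraries and 48.2, 55.2 and 42.3 CPM in the STARKO1 libraries (log2 fold change -0.49, adjusted p = 0.09999). Rbl2, for the pocket protein p130, overlapped between the lines (log2 fold change -0.12, adjusted p = 0.578). Neither pocket protein gene passed. The activator gene E2f1 was the highest of the family by fold change and did not overlap, with 30.6, 25.2 and 23.9 CPM in MA-10 replicates 1, 2 and 3 and 32.2, 32.7 and 31.7 CPM in STARKO1 cells (log2 fold change 0.28, adjusted p = 0.232). The MA-10 libraries lay above the STARKO1 libraries without overlap for 6 of the 11 genes (against 21.0% of all genes), namely Rb1, Rbl1, E2f5, E2f6, E2f7 and E2f8. E2f7 and E2f8, which encode repressors, had log2 fold changes of -0.45 and -0.52 with adjusted p values of 0.0874 and 0.0757. E2f4, a repressor that works with p130, had the widest range within MA-10 cells, at 55.8, 249 and 149.8 CPM in the MA-10 libraries and 66.8, 63.0 and 69.2 CPM in the STARKO1 libraries. Here MA-10 replicate 1 stood below all STARKO1 libraries while MA-10 replicates 2 and 3 were well above them.

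The 5 CDK inhibitor genes all had negative log2 fold changes, from -1.02 to -0.21, except that 3 of them were positive when libraries were scaled by size alone. With edgeR 0 of them passed the test, 2 were at an unadjusted p under 0.05, and DESeq2 called 1 lower. Cdkn1b, for the inhibitor p27, was at 70.5, 167 and 102 CPM in MA-10 replicates 1, 2 and 3 and 60.7, 59.1 and 53.3 CPM in the STARKO1 libraries (log2 fold change -0.97, adjusted p = 0.0806), without overlap. Cdkn2a, the locus of p16 and p19ARF, was at 85.3, 346 and 217 CPM in the MA-10 libraries and 109, 103 and 108 CPM in the STARKO1 libraries (log2 fold change -1.02, adjusted p = 0.151), and MA-10 replicate 1 lay below the STARKO1 level. Cdkn2a had the highest level per length of all the genes described in MA-10 cells, 184 CPM per kilobase of exon. The spread within MA-10 cells was thus wide for both. Cdkn1a, for p21, overlapped at 27.7, 22.5 and 18.8 CPM and 20.3, 20.7 and 18.5 CPM (log2 fold change -0.21, adjusted p = 0.419). Cdkn2b did not overlap, with MA-10 libraries at 15.6, 16.7 and 16.1 CPM and STARKO1 libraries at 11.9, 11.3 and 12.98 CPM (log2 fold change -0.42, adjusted p = 0.0975).

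Among the genes of origin licensing and the replicative helicase, those whose values did not overlap all lay higher in STARKO1 cells. For 10 of the 24 genes (41.7%, against 21.5% of all genes) every STARKO1 library lay above every MA-10 library, and for 0 genes (against 21.0% of all genes) was it the reverse. These were Mcm3, Mcm4, Mcm5, Mcm6, Mcm7, Mcm10, Mcm3ap, Gins1, Gins3 and Pcna. Of them Mcm3ap, the mRNA export factor gene, was counted in this role by its symbol only. The count was noticed in the data and carries no test of its own. With edgeR Gins1 was the 1 gene of the 24 that passed, DESeq2 called 6 higher (25%, against 10.5% of all genes) and 0 lower (against 16.0%), and the median log2 fold change was 0.086, against -0.050 over all genes.

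The promoters of Mcm5, Mcm6, Mcm7 and Pcna are shown as examples of the 10 genes of this role that lay higher in STARKO1 cells without overlap. Each is the 250 bases before the transcription start in RefSeq on GRCm38.p6, read in the direction of transcription, and capitals mark the letters of 3 motifs on either strand. These are the E2F letters TTTCGCGC or TTTGGCGC, the CHR letters TTTGAA or TTCGAA, to which the cell cycle repressor complex can bind, and CCAAT, the box of the factor NF-Y.
Mcm5, chr8:75109259-75109508, plus strand: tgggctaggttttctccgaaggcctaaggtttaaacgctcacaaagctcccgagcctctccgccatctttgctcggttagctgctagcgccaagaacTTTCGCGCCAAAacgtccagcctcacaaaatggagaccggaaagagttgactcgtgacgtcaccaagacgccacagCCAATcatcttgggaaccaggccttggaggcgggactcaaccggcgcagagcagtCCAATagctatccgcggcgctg
Mcm6, chr1:128359706-128359955, minus strand: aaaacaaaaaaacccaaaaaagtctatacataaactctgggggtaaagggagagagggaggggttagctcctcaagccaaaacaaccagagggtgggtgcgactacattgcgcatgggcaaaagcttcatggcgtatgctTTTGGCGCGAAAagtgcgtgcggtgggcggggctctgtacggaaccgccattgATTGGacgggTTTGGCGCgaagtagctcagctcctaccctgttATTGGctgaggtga
Mcm7, chr5:138171884-138172133, minus strand: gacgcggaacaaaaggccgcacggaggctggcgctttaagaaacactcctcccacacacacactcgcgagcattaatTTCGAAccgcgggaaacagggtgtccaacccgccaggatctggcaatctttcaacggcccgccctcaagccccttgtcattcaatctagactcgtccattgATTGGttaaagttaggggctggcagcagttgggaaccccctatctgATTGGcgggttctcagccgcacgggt
Pcna, chr2:132253181-132253430, minus strand: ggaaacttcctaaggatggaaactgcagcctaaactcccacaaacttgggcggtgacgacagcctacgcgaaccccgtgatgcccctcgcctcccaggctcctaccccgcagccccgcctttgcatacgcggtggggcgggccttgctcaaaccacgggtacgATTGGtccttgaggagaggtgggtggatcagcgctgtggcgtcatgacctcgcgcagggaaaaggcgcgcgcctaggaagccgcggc
In Mcm5 the E2F letters began 153 and 149 bases before the start, on opposite strands and sharing the letters GCGC. In Mcm6 they began 110 and 106 bases before the start, again overlapping, and once more at 47 bases. The Mcm7 window held CHR letters 173 bases before the start and CCAAT on the other strand at 72 and 26 bases, and the Pcna window held CCAAT on the other strand at 87 bases. In all, 91 of the 107 genes had a RefSeq window, with 106 windows between them. E2F letters were in 7 windows (6.60%), against 1.26% of the 11717 windows of all protein-coding genes in the table. CHR letters were in 24 windows (22.6%, against 12.4%), and CCAAT was in 62 (58.5%, against 36.1%). The E2F letters were in the windows of Mcm5, Mcm6, Orc1, Cdc25a, Cdk1, Rbl1 and Cenpl. Of these, Mcm5, Mcm6 and Cenpl had positive and Cdk1 and Rbl1 negative log2 fold changes, and those of Orc1 and Cdc25a are not given here. Of the other genes of the role that lay higher without overlap, the windows of Mcm3, Mcm10, Mcm3ap, Gins3, Mcm7 and Pcna held no E2F letters. Mcm7 has another RefSeq start, whose window held CCAAT on the other strand at 47 bases. These matches describe the sequence only.

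Mcm7, which encodes a subunit of the MCM2-7 ring, had the highest log2 fold change of this role. It was at 320.4, 187 and 181 CPM in MA-10 replicates 1, 2 and 3 and at 449, 452 and 459 CPM in STARKO1 replicates 1, 2 and 3, so MA-10 replicate 1 stood between the other MA-10 libraries and the STARKO1 libraries. The log2 fold change was 0.98 (standard error 0.267, 95% interval 0.35 to 1.62), with an adjusted p of 0.0618 (edgeR), just outside the threshold. Cops6 and Ap4m1 overlap the ends of Mcm7 on the opposite strand. Cops6 was at 138, 1825 and 980 CPM in MA-10 replicates 1, 2 and 3 and 144 to 156 CPM in STARKO1 cells, so that MA-10 replicates 2 and 3 lay above STARKO1 cells for Cops6 and below them for Mcm7, and its part in the Mcm7 counts was not tested. Mcm5 was at 163, 116 and 117 CPM in the MA-10 libraries and 197, 225 and 216 CPM in the STARKO1 libraries, again with MA-10 replicate 1 the nearest (log2 fold change 0.69, adjusted p = 0.0674). Pcna, for the polymerase clamp, was at 209.7, 188 and 196 CPM and 302, 289 and 285 CPM, with a wide gap between the lines (log2 fold change 0.56, adjusted p = 0.0663, 95% interval 0.18 to 0.94).

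The other subunit genes of the ring had smaller differences in the same direction. Mcm4 was at 208, 211 and 205 CPM in MA-10 libraries and 256, 261 and 255 CPM in STARKO1 cells (log2 fold change 0.31, adjusted p = 0.185). Mcm6 was at 390.0, 364 and 346 CPM and 462, 473 and 470.0 CPM (log2 fold change 0.35, adjusted p = 0.178), and Mcm3 at 390.4, 407 and 419 CPM and 423, 473 and 474 CPM (log2 fold change 0.17, adjusted p = 0.485). Mcm2 was the 1 ring gene whose libraries overlapped, at 277, 344 and 319.9 CPM in MA-10 replicates 1, 2 and 3 and 335, 351 and 351 CPM in the STARKO1 libraries (log2 fold change 0.14, adjusted p = 0.570). The 6 ring genes together were at 1749, 1629 and 1588 CPM in MA-10 replicates 1, 2 and 3 and at 2123, 2234 and 2226 CPM in the STARKO1 libraries, a ratio of 1.33. With scaling by library size alone, the median of all genes moved to 0.38 on the log2 scale, and that of the ring genes to 0.76. All 6 had positive log2 fold changes in the main comparison, and Mcm2 was at -0.011 with gene length offsets when MA-10 replicate 1 was left out.

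**Figure D2:**
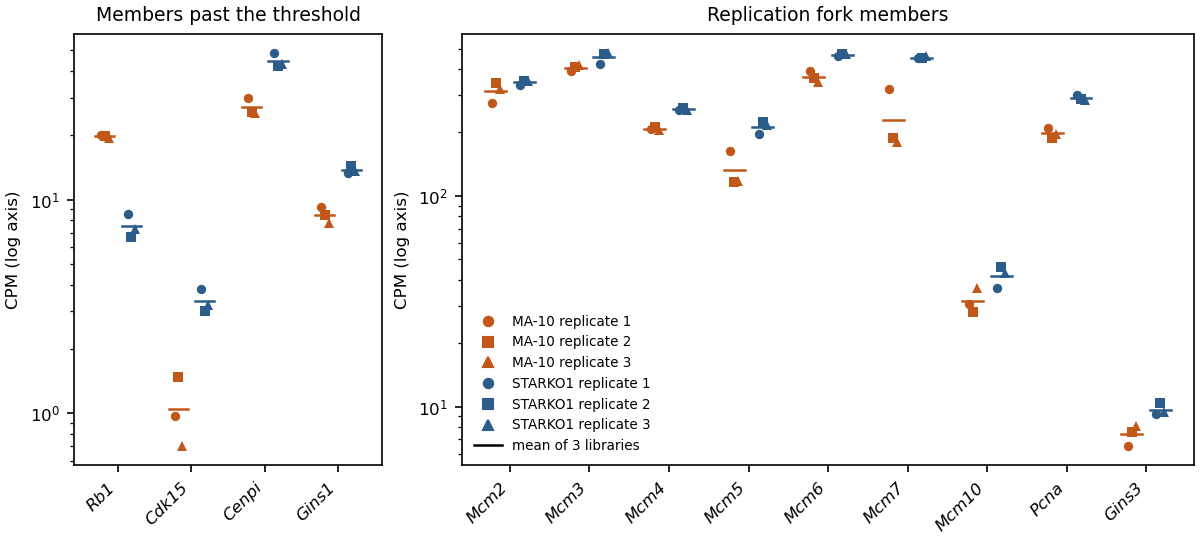
CPM on a log axis in each library for the 4 genes that passed the test (left) and 9 genes of the replication fork (right), MA-10 in orange and STARKO1 in blue, with a symbol per replicate and a bar at the mean of 3 libraries. The Rb1 values of MA-10 cells lie together near 20 CPM, and for Mcm5 and Mcm7 MA-10 replicate 1 lies apart from replicates 2 and 3, toward the STARKO1 libraries.

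Gins1, a subunit gene of the GINS complex (chromosome 2, 150905400 to 150931281, plus strand), passed the test. It was at 9.28, 8.4996 and 7.75 CPM in MA-10 replicates 1, 2 and 3 (162, 98 and 88 counts) and at 13.3, 14.3 and 13.7 CPM in STARKO1 replicates 1, 2 and 3 (309, 243 and 243 counts). Every STARKO1 library was above every MA-10 library. The mean rose from 8.51 ± 0.764 CPM to 13.8 ± 0.524 CPM (SD, n = 3 each), with a fitted change of 0.69 on the log2 scale (standard error 0.160, adjusted p = 0.0457, edgeR). Gins1 passed in 5 of 12 other settings. Of the 6 fits with a library removed it passed in 1, the one without MA-10 replicate 1 (adjusted p = 0.000777), while leaving out MA-10 replicate 2 or 3 or STARKO1 replicate 1, 2 or 3 ended the call (adjusted p from 0.0778 to 0.200). Its partner Gins2 differed widely among the MA-10 libraries, at 39.8, 100.3 and 73.7 CPM, and was at 49.4, 51.9 and 48.6 CPM in STARKO1 cells (log2 fold change -0.51, adjusted p = 0.268).

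The origin recognition genes overlapped between the lines in 6 of 6 cases. Orc4 had the lowest log2 fold change of the licensing role, -0.81 (adjusted p = 0.180), with 43.9, 133 and 131 CPM in MA-10 replicates 1, 2 and 3 and 61.1, 54.2 and 60.0 CPM in the STARKO1 libraries. MA-10 replicate 1 was below, and MA-10 replicates 2 and 3 were well above, the STARKO1 level. Cdc6, the loading factor of the ring, had the same arrangement, at 27.2, 71.0 and 41.7 CPM and 37.1, 37.4 and 35.6 CPM (log2 fold change -0.34, adjusted p = 0.462). Cdc45, the helicase partner, was at 44.0, 40.3 and 44.0 CPM and 39.7, 39.6 and 41.6 CPM (log2 fold change -0.086, adjusted p = 0.658) and overlapped, as did Cdc7, an activating kinase of origins, at 15.0, 16.7 and 15.9 CPM and 17.5, 14.4 and 16.8 CPM (log2 fold change 0.033, adjusted p = 0.890).

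A list of 44 other replication genes gave 4 higher and 1 lower in STARKO1 cells (11.4% called, against 9.04% of all genes). Wdhd1, for the fork protein that links the helicase to polymerase alpha, was at 28.1, 27.0 and 25.5 CPM in MA-10 replicates 1, 2 and 3 and 50.2, 50.4 and 51.2 CPM in STARKO1 cells, with little spread in either line (log2 fold change 0.91, adjusted p = 0.0147). Pola2, a subunit gene of polymerase alpha, was at 40.5, 31.0 and 28.9 CPM and 57.4, 61.8 and 60.7 CPM (log2 fold change 0.84, adjusted p = 0.0372), and Donson, a helicase loading factor gene, at 12.7, 7.98 and 6.87 CPM and 19.6, 19.9 and 21.9 CPM (log2 fold change 1.15, adjusted p = 0.0421). Uhrf1 was the other higher gene, and Pold4, for the small subunit of polymerase delta, was the lower one, at 9.62, 9.02 and 5.55 CPM in MA-10 libraries and 3.23, 3.54 and 2.81 CPM in STARKO1 cells (log2 fold change -1.34, adjusted p = 0.0324). Each of these 5 genes passed in 1 or 2 of the 6 fits that left out 1 library.

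The 3 genes of deoxynucleotide supply gave 0 calls with edgeR and 0 with DESeq2, and 1 was at an unadjusted p under 0.05. Rrm1, for the large subunit of ribonucleotide reductase, was at 237, 256 and 327 CPM in the MA-10 libraries and 193, 189.6 and 194 CPM in the STARKO1 libraries, without overlap (log2 fold change -0.51, adjusted p = 0.104). Rrm2, for its regulated small subunit, was at 333, 548 and 341 CPM and 311, 335 and 274 CPM, with MA-10 replicate 2 high alone (log2 fold change -0.41, adjusted p = 0.264). Tyms, for thymidylate synthase, was at 39.9, 113 and 83.5 CPM in MA-10 replicates 1, 2 and 3 and 59.3, 57.2 and 56.8 CPM in STARKO1 cells (log2 fold change -0.45, adjusted p = 0.367), so replicate 1 lay below the STARKO1 libraries and the other MA-10 libraries above.

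The 9 cyclins and CDKs of the cell cycle gave 0 calls with edgeR, 2 at an unadjusted p under 0.05, and 2 lower with DESeq2. The mitotic cyclin gene Ccnb1 was slightly lower in every STARKO1 library, at 103, 108 and 104 CPM and 98.4, 99.7 and 100.005 CPM (log2 fold change -0.083, adjusted p = 0.671, 95% interval -0.41 to 0.24). Ccna2, for cyclin A2 of S and G2 phase, was at 104, 78.6 and 91.1 CPM and 90.6, 104 and 87.8 CPM (log2 fold change 0.044, adjusted p = 0.863). Cdk2 and Cdk4, the kinase genes of the G1 to S transition, overlapped as well, at 37.4, 42.2 and 27.1 CPM and 40.1, 42.0 and 38.1 CPM (log2 fold change 0.17, adjusted p = 0.531) and at 141, 233 and 142 CPM and 167, 172 and 170.2 CPM (log2 fold change -0.016, adjusted p = 0.964). In contrast to these, the E-type cyclin genes, which act at S phase entry, differed several-fold within MA-10 cells. Ccne1 was at 34.8, 91.8 and 64.6 CPM in MA-10 replicates 1, 2 and 3 and 28.0, 25.7 and 28.0 CPM in STARKO1 cells (log2 fold change -1.23, adjusted p = 0.0623). Ccne2 was at 15.5, 94.5 and 51.4 CPM and 22.1, 24.99 and 19.9 CPM (log2 fold change -1.26, adjusted p = 0.153), with MA-10 replicate 1 below the STARKO1 libraries. Cdk1, the mitotic kinase gene, was at 105, 256 and 179 CPM and 122, 126 and 113 CPM (log2 fold change -0.58, adjusted p = 0.213), and here the STARKO1 libraries all lay between MA-10 replicate 1 and the others. Ccnb2 did not overlap, at 70.6, 129 and 99.8 CPM and 59.8, 57.7 and 54.4 CPM (log2 fold change -0.80, adjusted p = 0.0698).

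The genes of mitotic entry and the spindle checkpoint gave 0 calls of 14 with edgeR, with 4 at an unadjusted p under 0.05, while DESeq2 called 0 higher and 3 lower. Plk1, for the main Polo-like kinase, was at 79.1, 73.4 and 65.8 CPM and 67.7, 73.2 and 74.3 CPM (log2 fold change -0.021, adjusted p = 0.926). Aurkb, for the kinase of the chromosomal passenger complex, was at 47.7, 34.2 and 32.4 CPM and 41.0, 44.5 and 41.7 CPM (log2 fold change 0.15, adjusted p = 0.570). Cdc20, for the activator of the anaphase-promoting complex, was at 51.4, 51.6 and 45.2 CPM and 48.9, 53.3 and 47.4 CPM (log2 fold change 0.013, adjusted p = 0.953), and the checkpoint kinase gene Bub1 at 54.6, 71.8 and 73.4 CPM and 65.1, 64.9 and 62.6 CPM (log2 fold change -0.053, adjusted p = 0.831). The 95% intervals of these 4 log2 fold changes reached down to -0.453 for Bub1 and up to 0.607 for Aurkb. Cdc25b, a phosphatase gene that activates CDK1, was the highest of the role, and was at 27.8, 10.7 and 14.5 CPM in MA-10 replicates 1, 2 and 3 and 21.7, 21.0 and 20.1 CPM in STARKO1 cells (log2 fold change 0.24, adjusted p = 0.617). Aurkaip1, the mitochondrial ribosome gene, was the lowest, at 87.3, 464 and 353 CPM and 87.9, 93.4 and 106 CPM (log2 fold change -1.65, adjusted p = 0.0853). In it MA-10 replicate 1 was level with STARKO1 cells and the other MA-10 libraries were several-fold above. Plk4, the centriole duplication kinase gene, did not overlap, at 43.1, 110.1 and 104 CPM and 35.5, 38.0 and 34.3 CPM (log2 fold change -1.25, adjusted p = 0.0632).

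The proliferation marker Mki67, which is transcribed in all dividing cells, was abundant in both lines. It was at 1077, 748 and 1263 CPM in MA-10 replicates 1, 2 and 3 and 820.2, 788 and 742 CPM in STARKO1 replicates 1, 2 and 3 (log2 fold change -0.39, adjusted p = 0.282, standard error 0.255), and the lines overlapped. Top2a, for the topoisomerase of mitotic chromosomes, was at 706, 673 and 839.6 CPM and 730.2, 768 and 716 CPM (log2 fold change -0.0029, adjusted p = 0.993, 95% interval -0.48 to 0.47). The 3 motor genes of the spindle and the midzone, Kif11, Kif20a and Kif23, lay above in every STARKO1 library without passing the test. Kif20a was the highest of them, at 63.2, 46.2 and 54.8 CPM and 79.6, 85.4 and 84.4 CPM (log2 fold change 0.60, adjusted p = 0.0639), and Kif11 was at 118, 96.0 and 119 CPM and 136, 139.9 and 129 CPM (log2 fold change 0.29, adjusted p = 0.227). Per kilobase of exon, Mki67 was at 102 CPM in MA-10 libraries and 77.8 CPM in STARKO1 cells, and Top2a at 82.1 and 81.9 CPM.

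Among the 22 centromere and kinetochore genes, Cenpi passed the test. It encodes a subunit of the constitutive centromere network, on which the kinetochore is built (chromosome X, 134308084 to 134362640, plus strand). Cenpi was at 29.9, 25.8 and 25.4 CPM in MA-10 replicates 1, 2 and 3 and at 48.4, 42.4 and 43.2 CPM in STARKO1 replicates 1, 2 and 3. Every STARKO1 library was above every MA-10 library. The mean rose from 27.0 ± 2.48 CPM to 44.6 ± 3.23 CPM (SD, n = 3 each), with a fitted change of 0.72 on the log2 scale (standard error 0.152, adjusted p = 0.0371, edgeR). It passed in 9 of 12 other settings and, of the 6 fits with a library removed, in the one without MA-10 replicate 1, while leaving out MA-10 replicate 2 or 3 or STARKO1 replicate 1, 2 or 3 ended the call (adjusted p from 0.0683 to 0.177). The promoter window of Cenpi is shown because the gene passed, and held none of the 3 motifs.
Cenpi, chrX:134307834-134308083, plus strand: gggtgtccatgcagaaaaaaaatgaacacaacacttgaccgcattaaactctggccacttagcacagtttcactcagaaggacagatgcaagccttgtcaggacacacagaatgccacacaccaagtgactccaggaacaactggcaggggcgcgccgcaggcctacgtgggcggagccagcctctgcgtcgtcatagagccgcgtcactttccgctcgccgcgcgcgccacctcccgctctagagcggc

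No other gene of the role passed the test with edgeR, while DESeq2 called 2 of the 22 higher and 8 lower (against 10.5% and 16.0% of all genes). The network is built of the subcomplexes CENP-HIKM, CENP-TWSX, CENP-OPQU and CENP-LN. Cenpp, of CENP-OPQU, had the lowest log2 fold change of the role. It was at 13.2, 98.4 and 67.0 CPM in MA-10 replicates 1, 2 and 3 and 11.8, 13.7 and 11.2 CPM in the STARKO1 libraries, so MA-10 replicate 1 lay within the STARKO1 range and MA-10 replicate 2 was 7.47-fold above MA-10 replicate 1. The log2 fold change of -2.28 had a wide 95% interval of -3.82 to -0.74 (adjusted p = 0.0658). Cenph and Cenpk, the partners of Cenpi, were at 24.9, 141 and 81.1 CPM and 16.1, 118 and 69.9 CPM in MA-10 replicates 1, 2 and 3, and at 23.3, 25.3 and 21.6 CPM and 16.0, 16.9 and 15.1 CPM in STARKO1 replicates 1, 2 and 3. Cenps was at 6.81, 50.04 and 28.5 CPM in the MA-10 libraries and 8.60, 7.25 and 8.43 CPM in the STARKO1 libraries (log2 fold change -1.81, adjusted p = 0.0922). For these 4 genes the fold between the highest and the lowest MA-10 library exceeded the fold between the means of the lines. Ippk and Tes3-ps overlap Cenpp and Ppwd1 overlaps Cenpk on the opposite strand. Tes3-ps was at 2.18, 9.45 and 6.16 CPM in MA-10 replicates 1, 2 and 3 and at 0.955 to 2.00 CPM in STARKO1 libraries, so it was high where Cenpp was high. The part of these genes in the counts was not tested.

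Cenpx and Cenpq differed from them in that MA-10 replicate 1 also lay above STARKO1 cells. Cenpx was at 14.8, 50.3 and 24.8 CPM in MA-10 replicates 1, 2 and 3 and 7.87, 10.1 and 8.37 CPM in the STARKO1 libraries (log2 fold change -1.77, adjusted p = 0.0518). Cenpq was at 28.3, 81.2 and 58.6 CPM and 23.1, 21.6 and 19.0 CPM (log2 fold change -1.40, adjusted p = 0.0595). Cenpt and Cenpn pointed the other way with no overlap, Cenpt at 5.21, 9.80 and 8.28 CPM and 11.4, 11.3 and 12.02 CPM (log2 fold change 0.58, adjusted p = 0.139), and Cenpn at 14.9, 12.7 and 12.7 CPM and 21.0, 19.5 and 17.2 CPM (log2 fold change 0.52, adjusted p = 0.0802). Cenpw, which pairs with Cenpt in 1 histone-fold unit, was at 18.4, 84.7 and 46.4 CPM and 36.3, 39.3 and 40.2 CPM (log2 fold change -0.37, adjusted p = 0.591, edgeR). The fitted signs of Cenpt and Cenpw differed, but neither gene passed. For both, the STARKO1 libraries lay above MA-10 replicate 1, as the heat map of these genes shows.

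**Figure D3:**
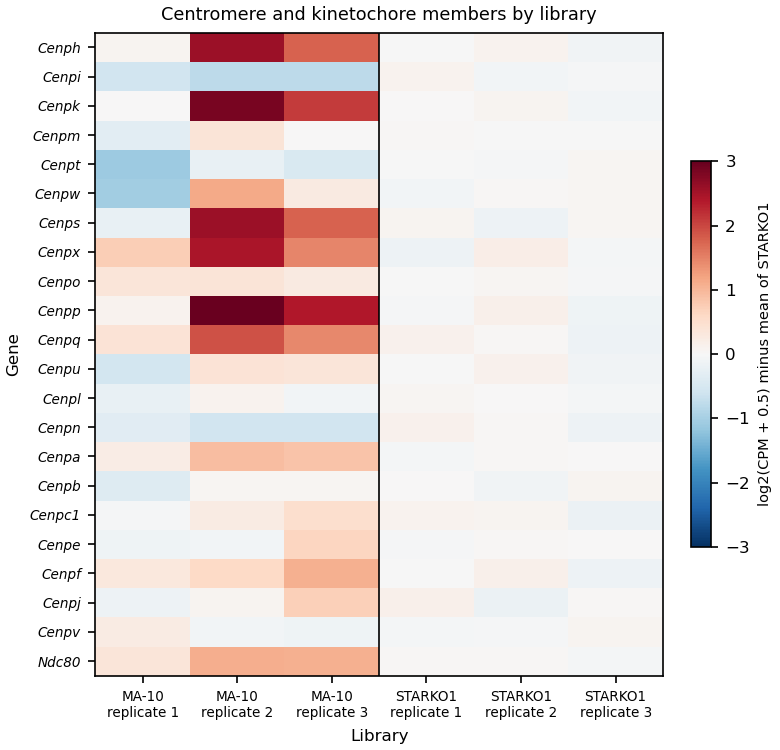
Difference of log2(CPM + 0.5) from the mean of the STARKO1 libraries for the 22 centromere and kinetochore genes (rows) in the 6 libraries (columns). Red is above and blue below that mean, and the red cells of Cenph, Cenpk, Cenps and Cenpp are in MA-10 replicates 2 and 3 while MA-10 replicate 1 is near 0.

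Summed over subunit genes, CENP-HIKM was at 108, 345 and 223 CPM in MA-10 replicates 1, 2 and 3 and 135, 130.0 and 126 CPM in STARKO1 replicates 1, 2 and 3. CENP-OPQU was at 64.4, 215 and 159.8 CPM and 61.5, 64.4 and 55.4 CPM, and CENP-TWSX at 45.3, 195 and 108 CPM and 64.2, 68.0 and 69.0 CPM. In each of these sums MA-10 replicates 2 and 3 were above all other libraries. The origin recognition genes summed to 174, 327 and 299.8 CPM and 229, 215 and 228 CPM with the same order, whereas the ring genes MCM2-7 did not follow it. With TMM scaling, the plot of summed levels shows the ring with 3 close MA-10 libraries and 3 close STARKO1 libraries above them. How close the MA-10 libraries lie depends on their unequal TMM factors. In all these sums, the factors raise MA-10 replicates 2 and 3 relative to MA-10 replicate 1.

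**Figure D4:**
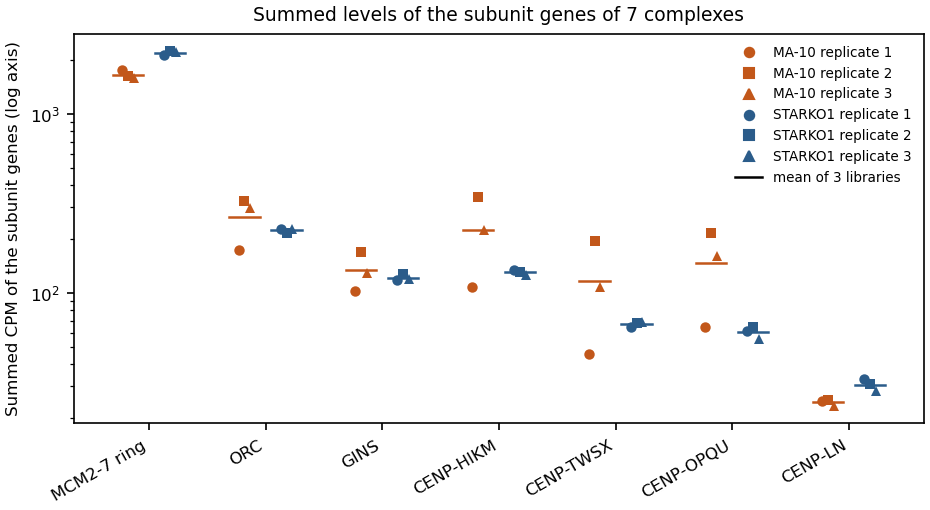
Summed CPM of the subunit genes of 7 complexes, on a log axis, in each library (symbol per replicate, bar at the mean of 3 libraries, MA-10 in orange and STARKO1 in blue). For MCM2-7 and CENP-LN all STARKO1 libraries lie above the MA-10 libraries, and for the other sums the MA-10 libraries spread around the STARKO1 libraries or reach above them.

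Cenpa, which encodes the histone variant that marks centromeres, and Ndc80, which encodes a kinetochore protein that binds microtubules, had lower values in every STARKO1 library without passing the test. Cenpa was at 35.3, 57.8 and 55.1 CPM in the MA-10 libraries and 29.1, 31.0 and 30.5 CPM in the STARKO1 libraries (log2 fold change -0.71, adjusted p = 0.0736). Ndc80 was at 69.2, 113 and 113 CPM and 54.5, 54.7 and 50.8 CPM (log2 fold change -0.88, adjusted p = 0.0552). A list of 72 other mitosis genes gave 0 higher and 5 lower in STARKO1 cells with edgeR (6.94%, against 9.04% of all genes). Wee1, for the kinase that restrains CDK1, was at 40.8, 43.3 and 51.1 CPM in MA-10 replicates 1, 2 and 3 and 25.9, 24.2 and 23.7 CPM in STARKO1 cells (log2 fold change -0.87, adjusted p = 0.0250). Sgo1, for the protector of centromeric cohesion, was at 27.1, 45.3 and 44.4 CPM and 18.8, 19.5 and 18.7 CPM (log2 fold change -1.03, adjusted p = 0.0410). The lower genes also included Cdca8 and Cks2. Each of the 5 passed in 1 or 2 of the 6 fits that left out 1 library. Before adjustment, 28 of the 72 (38.9%, against 37.6% of all genes) had a p under 0.05, and DESeq2 called 5 higher (6.94%, against 10.5%) and 15 lower (20.8%, against 16.0%).

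Of the 14 CDKs of transcription and other processes, 13 were tested and Cdk15 passed. It encodes a little-studied kinase of the PFTAIRE group (chromosome 1, 59256906 to 59352994, plus strand). Cdk15 was at 0.974, 1.47 and 0.704 CPM in MA-10 replicates 1, 2 and 3 (17, 17 and 8 counts) and at 3.83, 3.01 and 3.20 CPM in STARKO1 replicates 1, 2 and 3 (89, 51 and 57 counts). It was a low transcript in both lines and did not overlap between them. The mean rose from 1.05 ± 0.391 CPM to 3.35 ± 0.429 CPM (SD, n = 3 each), with a fitted change of 1.67 on the log2 scale (standard error 0.328, adjusted p = 0.0314, edgeR). Leaving out MA-10 replicate 3 or STARKO1 replicate 1, 2 or 3 ended the call (adjusted p = 0.101, 0.148, 0.136 and 0.157). Its promoter window is shown as that of the gene with the largest positive fold change, and held none of the 3 motifs.
Cdk15, chr1:59256656-59256905, plus strand: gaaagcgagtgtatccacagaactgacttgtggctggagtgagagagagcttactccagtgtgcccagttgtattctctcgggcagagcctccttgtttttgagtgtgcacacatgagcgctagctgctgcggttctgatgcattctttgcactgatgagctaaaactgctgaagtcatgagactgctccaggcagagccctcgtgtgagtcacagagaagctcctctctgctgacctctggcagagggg

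The lowest of these kinase genes was Cdk20, a kinase of cilia, at 5.04, 5.12 and 3.26 CPM in MA-10 libraries and 2.67, 2.71 and 2.58 CPM in STARKO1 cells (log2 fold change -0.75, adjusted p = 0.0857). Cdk14, the relative of Cdk15, had 5, 2 and 0 counts in the MA-10 libraries and 2, 0 and 1 counts in the STARKO1 libraries and was too low to be tested. The other 11 kinase genes had log2 fold changes between -0.74 and 0.54.

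The MA-10 libraries had a wider range than the STARKO1 libraries for 96 of the 106 genes (90.6%), as for 90.8% of all genes. The highest MA-10 library was more than 2-fold above the lowest for 23 of the 106 genes (21.7%, against 39.8% of all genes). The same held for 0 of them in STARKO1 cells (against 3.05% of all genes), where the widest range was 1.74-fold. The median range was 1.47-fold in MA-10 cells and 1.10-fold in STARKO1 cells, against 1.78-fold and 1.13-fold for all genes. The median distance from the STARKO1 mean, as an absolute log2 difference, was 0.26 for MA-10 replicate 1, 0.53 for replicate 2 and 0.44 for replicate 3. MA-10 replicate 1 was the nearest of the MA-10 libraries for 57 of the 106 genes (53.8%), against 64.0% of all genes. By transcript length, Spearman's rho of exon length with the difference of the STARKO1 mean from MA-10 replicates 1, 2 and 3 was -0.14, 0.16 and -0.011 across the 106 genes, which share these libraries and are not independent. For the 14 genes with less than 2000 bases of exon, the median difference of the STARKO1 mean from MA-10 replicates 1, 2 and 3 was -0.069, -0.67 and -0.56 on the log2 scale. For the 92 longer genes it was 0.11, -0.10 and -0.13.

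Without MA-10 replicate 1, the count of calls rose to 61 of the 106 genes (57.5%), with 23 higher and 38 lower, but it rose in all genes too, to 65.7%, with 34.0% higher and 31.7% lower. The centromere genes then had 3 higher and 10 lower, the RB and E2F genes 2 higher and 7 lower, and the licensing and helicase genes 9 higher and 4 lower. A setting with MA-10 replicate 1 as the only MA-10 library was added after the values were seen. Its spread comes from the STARKO1 libraries alone, which varied less among themselves than the MA-10 libraries did. Its calls therefore do not test a difference between the lines, and only effect sizes are given here. The median log2 difference of the STARKO1 mean from MA-10 replicate 1 was 0.31 for the licensing and helicase genes. It was 0.089 for the 106 genes and -7.23e-05 for all genes. Mcm7 had log2 fold changes of 1.39 without MA-10 replicate 1 (adjusted p = 3.18e-05, edgeR) and 0.50 with it alone. Cenpp had log2 fold changes of -2.66 and -0.11 in the same settings, and Rb1 of -1.28 and -1.40.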

How the data were processed

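Total RNA of 3 MA-10 and 3 STARKO1 libraries had been sequenced, and the authors deposited 1 table of estimated counts for 14774 genes. The submitters' processing notes name STAR 2.6.1d, Partek and the build mm10 (GRCm38), without saying which step each did, and strand use is not given in the sources used here. The smallest total of a gene was 10 counts. Estimated counts deviated from whole numbers by over 0.01 in 20 of the 107 genes, which reads shared with other genes can cause, and were rounded. Of the 107 genes, 35 overlap another listed gene. Low genes were removed by filterByExpr, libraries were scaled by TMM, and the quasi-likelihood test of edgeR 4.0.16 (R 4.3.3) was run on the cell line over all 11939 genes left, with Benjamini-Hochberg adjustment and a threshold of 0.05. The edgeR biological coefficient of variation was 0.291. DESeq2 1.42.0 and 11 other settings, and leaving out each library in turn, were alternatives, of which 2 were chosen once the values were known. The edgeR test was checked on simulated counts, which spread less between libraries than these data do and held no outlying library. The check does not show how the test performs with such a library. Exon lengths came from GENCODE, matched by symbol and chromosome for 14677 genes. Promoter windows came from RefSeq.

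The genes, roles and lists were chosen with earlier results of these data known. The text names the genes that passed, a set of anchors chosen for their known roles, the highest and lowest fold change of each role at a mean of at least 1 CPM, and up to 3 genes per direction of each further list, of which 1 is not reported here. No columns were left out for lack of a label.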

Additional observations from a re-analysis of the deposited data

How the results depend on the processing

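Star was lower in STARKO1 cells in every setting, with log2 fold changes from -5.23 to -4.58. Shares in parentheses are those of all genes called in either direction. Of the 107 cell cycle genes, DESeq2 called 11 higher and 18 lower (22.9% of the 14765 genes it tested, many of them low). Of the 11939 genes tested with edgeR, DESeq2 called 10.5% higher and 16.0% lower. At least 10 counts in every library gave 1 higher, with 2 called in either direction (6.44%). GC content offsets and gene length offsets each gave 2 lower, with 6 and 4 called in either direction (10.5% and 9.90%). Library size scaling gave 0 lower, with 2 called in either direction (2.76%). Gene length offsets without the first MA-10 library gave 28 and 43 (67.0%), MA-10 replicate 1 as the only MA-10 library 35 and 21 (40.5%), an adjusted p under 0.1 gave 10 and 24 (29.1%), and one under 0.01 gave 0 higher (1.499%). Leaving out 1 library gave 0 to 23 higher and 0 to 38 lower (0.730% to 65.7% of all genes called). For the 155 further pathway genes, the counts higher and lower were 20 and 27 with DESeq2, 40 and 70 with length offsets without the first MA-10 library, 1 and 0 with library size scaling, 37 and 31 with MA-10 replicate 1 alone, 21 and 30 at an adjusted p under 0.1, 0 and 0 at one under 0.01, and 0 to 39 and 0 to 68 with 1 library left out. For them, at least 10 counts in every library gave 6 lower and upper quartile scaling 4 lower (6.94% of all genes called in either direction). The counts listed for MA-10 replicate 1 as the only MA-10 library rest on the spread of the STARKO1 libraries alone. With no spread among MA-10 libraries, they do not test a difference between the lines. The median log2 fold change of the cell cycle genes moved to 0.34 with library size scaling, and that of the further genes to 0.26 with it, -0.026 with GC content offsets, -0.062 with upper quartile scaling and 0.051 with MA-10 replicate 1 alone.

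The labels do not say whether the replicate numbers pair the libraries of the 2 lines. The deviations of same-numbered libraries from their line's mean correlated at -0.035, 0.091 and -0.016 over 8538 genes. Because MA-10 replicate 1 differed strongly from the other MA-10 libraries, these values cannot show whether a batch was shared. With the replicate number as a block, 0 cell cycle genes were higher and Rb1 alone was lower (adjusted p = 0.0407), while Cdk15, Cenpi and Gins1 were at 0.0862, 0.104 and 0.120 and 0 of the further genes were called in either direction, against 1.96% of all genes. The block with gene length offsets likewise gave 0 cell cycle genes higher and 0 further genes in either direction.

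Log2 fold changes turned their sign in some settings, mostly where they were small. The larger ones that did so, with MA-10 replicate 1 as the only MA-10 library, were those of Aurkaip1 (-1.65 in the main comparison), Ccne2 (-1.26), Cdkn2a (-1.02), Orc4 (-0.81) and Cdk1 (-0.58). With MA-10 replicate 1 as the only MA-10 library, Aurkaip1 was at 0.13, Aurkb at -0.17, Bub1 at 0.23, Ccna2 at -0.14, Ccne2 at 0.53, Cdc20 at -0.045, Cdc25b at -0.40, Cdk1 at 0.20, Cdk4 at 0.27, Cdkn2a at 0.32, Orc4 at 0.42, Top2a at 0.065 and Tyms at 0.54. With GC content offsets, Bub1 was at 0.26, Ccnb1 at 0.13, Cdc20 at -0.063 and Top2a at 0.23. With library size scaling, Bub1 was at 0.43, Ccnb1 at 0.36, Cdk4 at 0.49, Cdkn1a at 0.19, Mki67 at 0.011, Plk1 at 0.40, Rrm2 at 0.091, Top2a at 0.44 and Tyms at 0.13. With no filter on low counts, Bub1 was at 0.0085, Cdk4 at 0.045, Plk1 at 0.034 and Top2a at 0.056. With upper quartile scaling, Bub1 was at 0.11, Ccnb1 at 0.065, Cdk4 at 0.15, Plk1 at 0.12 and Top2a at 0.15. With DESeq2, Cdk4 was at 0.018, Plk1 at 0.013 and Top2a at 0.033. With at least 10 counts in every library, Cdk4 was at 0.012, Plk1 at 0.0043 and Top2a at 0.023. With gene length offsets without the first MA-10 library, Cdk4 was at 0.036, Cdkn1a at 0.058, Mcm2 at -0.011 and Plk1 at 0.40. With gene length offsets, Cdk4 was at 0.11 and Plk1 at 0.20. With the replicate block and gene length offsets, Cdk4 was at 0.14 and Plk1 at 0.22. With the replicate block, Cdk4 was at 0.026 and Top2a at 0.0031. With the 50 most abundant genes left out, Cdk4 was at 0.019, Plk1 at 0.010 and Top2a at 0.031. With 1 library left out, the ranges were -0.089 to 0.023 for Bub1, -0.053 to 0.24 for Ccna2, -0.092 to 0.0094 for Ccnb1, -0.049 to 0.13 for Cdc20, -0.019 to 0.82 for Cdc25b, -0.14 to 0.26 for Cdk4, -0.34 to 0.035 for Cdkn1a, -0.090 to 0.13 for Plk1 and -0.068 to 0.096 for Top2a. The cause of these changes was not tested. With 3 libraries per line, an exact permutation test of a single value cannot go below 0.1.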

Other observations

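2 further lists of the pathway were measured. Of 20 genes of the anaphase-promoting complex and of SCF ubiquitin ligases that act on the cell cycle, 1 was higher and 2 were lower in STARKO1 cells (15%, against 9.04% of all genes, edgeR). Fbxw7, for the substrate receptor that marks cyclin E for destruction, was at 41.8, 46.0 and 60.2 CPM in MA-10 replicates 1, 2 and 3 and 96.6, 95.6 and 93.9 CPM in STARKO1 cells (log2 fold change 0.95, adjusted p = 0.0292). Anapc15, a subunit gene of the anaphase-promoting complex, was at 17.6, 31.1 and 28.7 CPM and 10.5, 12.7 and 12.02 CPM (log2 fold change -1.14, adjusted p = 0.0400), and Anapc11, for its catalytic RING subunit, at 28.7, 72.0 and 56.0 CPM and 18.5, 21.2 and 19.6 CPM (log2 fold change -1.40, adjusted p = 0.0469). In all 3 genes the lines did not overlap, and with 1 library left out they passed in 2, 1 and 1 of 6 fits.

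Of 19 genes of the DREAM complex and other G1 regulators, 0 were higher and 2 lower with edgeR (10.5%, against 9.04%), 10 were at an unadjusted p under 0.05 (against 37.6% of all genes), and DESeq2 called 2 higher and 5 lower (against 10.5% and 16.0%). Gadd45a, for a stress-induced growth arrest protein, was at 122, 112 and 155 CPM in MA-10 replicates 1, 2 and 3 and 71.0, 66.0 and 67.3 CPM in STARKO1 cells (log2 fold change -0.93, adjusted p = 0.0289). Cdkn2c, for the CDK4 and CDK6 inhibitor p18, was at 32.6, 43.7 and 42.0 CPM and 24.6, 24.2 and 23.6 CPM (log2 fold change -0.71, adjusted p = 0.0483), and Gadd45a and Cdkn2c passed in 2 and 1 of those 6 fits. Over the 4 further lists together, 5 of 155 genes were higher and 10 lower (9.68%).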
